A study of Homo sapiens with 7 samples.

Results

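CTR9, PAF1, CDC73, LEO1, RTF1 and WDR61 encode the subunits of the human PAF1 complex. They were followed in long-read RNA libraries of human embryonic stem cells in which Cas13d, an RNA-guided nuclease that cuts RNA, was directed at isoforms of the splicing regulator RBFOX2. The 6 genes were chosen by name, as the complex to which CTR9 belongs, and CTR9 itself was chosen because its read count was higher than the control in every knockdown library. Its ratios are therefore a description and support nothing. The 6 genes are 6 of the 14294 genes with an Ensembl ID in the isoform table, and their 203 isoforms are 203 of 386982. The cells were HUES66, a human embryonic stem cell line in established use. The control was labelled WT, and the other 6 libraries were labelled RBFOX2 isoform KD, each with an RBFOX2 id and a G number: 178147 (G3), 178149 (G5), 178136 (G11), 178135 (G12), 178145 (G13) and 178146 (G14). All 7 samples, the control included, carried the description piggyBac, a transposon used to insert transgenes, and were taken at 24 h with 1 µg/ml doxycycline. Which isoform each id denotes, the promoter that drives Cas13d and whether a line was 1 clone or a pool are not given in the sources used here. Each group held 1 library, so no difference below has a replicate check or a p-value, and intervals cover counting error only.

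The PAF1 complex travels with RNA polymerase II along genes. CTR9 is its scaffold, on which PAF1, CDC73 and WDR61 assemble, LEO1 pairs with PAF1, and RTF1 joins the complex loosely in human cells. Through RTF1 and its partners the complex promotes ubiquitination of histone H2B and methylation of histone H3, and it acts on pausing, elongation and 3′ end formation. In embryonic stem cells it has been studied as a factor that helps to maintain pluripotency.

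The control was the shallowest library, with 16801842 reads, and G12 the deepest, with 26678538, and each read stands for 1 cDNA molecule. Levels are therefore given in TPM as deposited, which here means reads relative to the whole library with no division by transcript length. The listed isoforms each had at least 1 control read and held 98.1% to 98.6% of the reads of the G libraries, so isoforms absent from the control enter no value here. The targeted gene RBFOX2 stood at 107 TPM in the control and at 42.1, 96.8, 82.9, 88.5, 55.9 and 106 TPM in G3, G5, G11, G12, G13 and G14. It was lowest in G3, at 39.2% of the control, and closest to the control in G14, at 98.6%. Of 12 embryonic stem cell markers, 10 reached a mean of 5 TPM, with POU5F1 between 377 and 915 TPM and DPPA4 between 745 and 1002 TPM. POU5F1 was below the control in all 6 G libraries (log2 differences of -0.64 to -1.28) and so was NANOG, past 2-fold in 4 of them. DPPA4 was above the control in all 6 and so was L1TD1, past 2-fold in 5. Their part in the results below was not tested. SOX2 has no row in the table used here. Of 5 endoderm and 5 mesoderm markers, 3 of each have rows and none of these reached 5 TPM, while the others were not analysed here because they have no row. Of 4 ectoderm markers, PAX6 and SOX1 have no row and NES had a mean of 0.050 TPM. The fourth, OTX2, which stem cells also express, lay between 101 and 140 TPM. Of 5 fibroblast markers, COL3A1, LUM and DCN have no row. The collagens COL1A1 and COL1A2 were present at 1.58 to 30.3 and 2.63 to 13.3 TPM. They were highest in G3 and G5 respectively and lowest in G13, and the part of fibroblast RNA was likewise not tested.

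CTR9 was the scarcest of the 6 transcripts in the control and stood several-fold higher in every G library. The gene (ENSG00000198730.9) occupies 10750987 to 10801625 of chromosome 11, plus strand, in GENCODE 29 on GRCh38. The control held 28 CTR9 reads, and G3, G5, G11, G12, G13 and G14 held 144, 306, 249, 334, 331 and 375. These counts correspond to 1.67 TPM in the control (95% Poisson interval 1.11 to 2.41) and to 8.07, 12.02, 11.95, 12.5, 14.5 and 17.9 TPM in G3, G5, G11, G12, G13 and G14. The control was lowest and G14 highest. From the lowest, the order was control, G3, G11, G5, G12, G13 and G14, and each step between neighbours from G11 to G13 was within counting error.

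The ratio of CTR9 to the control was lowest in G3, at 4.84-fold (95% exact interval 3.21 to 7.54), and highest in G14, at 10.7-fold (7.31 to 16.4). On the log2(TPM + 0.5) scale, which understates the ratios of weakly expressed genes, the difference ran from 1.98 in G3 to 3.09 in G14 with a median of 2.56. CTR9 was at least 2-fold higher in all 6 G libraries, as were 14 of the 7877 genes with a mean of at least 5 TPM (0.178%). This count includes CTR9 and was part of how the gene was chosen. The filter also uses the mean of all 7 libraries. CTR9, at 1.67 TPM in the control, passed it with a mean of 11.2 TPM only through the G libraries where it was high. The share of 0.178% is therefore no independent background for CTR9. Over single libraries, 1.89%, 0.533%, 0.724%, 0.546%, 1.04% and 3.97% of all genes were at least 2-fold higher in G3, G5, G11, G12, G13 and G14. At least 2-fold lower were 5.14%, 10.1%, 10.4%, 8.79%, 14.6% and 18.9% in the same order. CTR9, LEO1 and RTF1 passed 2-fold in either direction in at least 1 G library, 3 of the 6 members, against 30.6% of all genes. All 6 ratios have the same 28 control reads as their denominator, so they are not 6 separate observations of a rise. Within the G libraries alone, the highest value, in G14, was 1.23-fold that of the next, G13 (1.06 to 1.43), and G11 was 1.48-fold G3 (1.20 to 1.83). In bulk RNA, more transcript per cell and more cells that carry the transcript cannot be told apart.

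**Figure D1:**
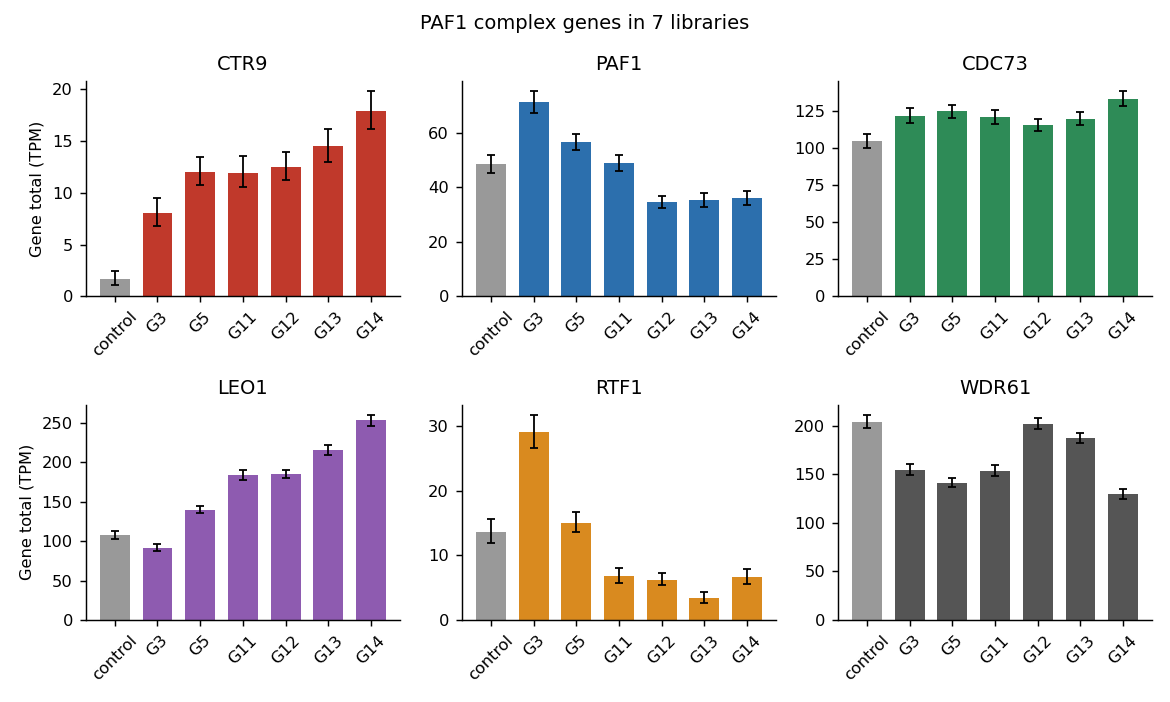
Level of each of the 6 genes in the 7 libraries, in TPM (reads relative to the whole library, not divided by length). Bars are single libraries, grey for the control and coloured for the G libraries, with 95% Poisson intervals of the read count. The vertical scales differ between panels. CTR9 was lowest in the control at 1.67 TPM, LEO1 was highest in G14 at 253 TPM, and RTF1 was highest in G3 at 29.1 TPM.

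The CTR9 reads were held almost wholly by the full-length reference isoform. ENST00000361367.7 had 22 of the 28 control reads (78.6%, 95% Wilson interval 60.5 to 89.8) and between 97.3% (G13) and 100% (G3) of the reads in the G libraries. The other 6 isoforms, which carry hashed identifiers in place of a transcript ID, had 1 control read each, the fewest that the listing allows. All 7 isoforms ended between 10779740 and 10779753, beyond the stop codon, which starts at 10779103, and short of EIF4G2, the gene on the opposite strand that overlaps the far end of the annotated CTR9 span. No CTR9 read belonged to an isoform that ended before the stop codon in any library. This allows a share of up to 1.01% in G14 and of up to 12.1% in the control, with its 28 reads.

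The isoform models of CTR9 also began close together. In every library 100% of its reads belonged to isoforms whose 5′ end lay within 100 bases of the RefSeq transcript start at 10751246, the lower limit being 87.9% in the control with 28 reads and 99.0% in G14. The position of a reference isoform is that of its model, not of single reads. The GENCODE 29 start of the gene lies further upstream, and no isoform began within 100 bases of it. LEO1 and RTF1 likewise had 100% of their reads in isoforms that began within 100 bases of the RefSeq start in all 7 libraries. For PAF1 the share was between 98.6% and 100%, for WDR61 between 98.4% and 99.1%, and for CDC73, measured from its GENCODE 29 start, between 98.3% and 98.9%. Over the 6390 compared genes with a RefSeq start, the median share per gene was between 97.1% and 98.4%, and the share of their pooled reads between 66.8% and 68.5%. Because most member reads belong to reference isoforms, these shares describe the models to which reads were assigned and not where the reads began.

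RefSeq promoter sequences (GRCh38.p14) were matched by symbol for 5 of the 6 genes. The 250 bases before the start are shown for CTR9, LEO1 and RTF1, the 3 genes that passed 2-fold in at least 1 library, because the isoforms that hold their reads begin beside these bases. They lie at chr11:10750996-10751245 on the plus strand for CTR9, at chr15:51971779-51972028 on the minus strand for LEO1 and at chr15:41416845-41417094 on the plus strand for RTF1. Each is written 5′ to 3′ on the gene's strand, and capitals mark the motifs GGGCGG (GC box) and CCGGAAG (a core of ETS factor sites) on either strand.
CTR9: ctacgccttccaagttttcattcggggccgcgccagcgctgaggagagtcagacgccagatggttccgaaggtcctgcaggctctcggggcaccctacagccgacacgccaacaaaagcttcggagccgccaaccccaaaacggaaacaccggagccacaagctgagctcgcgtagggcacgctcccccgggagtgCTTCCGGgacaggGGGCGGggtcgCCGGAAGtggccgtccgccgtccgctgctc
LEO1: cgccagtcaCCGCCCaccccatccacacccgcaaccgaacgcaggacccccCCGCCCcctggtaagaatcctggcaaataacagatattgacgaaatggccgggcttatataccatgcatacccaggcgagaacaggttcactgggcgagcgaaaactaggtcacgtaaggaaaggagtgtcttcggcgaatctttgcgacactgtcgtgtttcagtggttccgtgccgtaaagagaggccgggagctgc
RTF1: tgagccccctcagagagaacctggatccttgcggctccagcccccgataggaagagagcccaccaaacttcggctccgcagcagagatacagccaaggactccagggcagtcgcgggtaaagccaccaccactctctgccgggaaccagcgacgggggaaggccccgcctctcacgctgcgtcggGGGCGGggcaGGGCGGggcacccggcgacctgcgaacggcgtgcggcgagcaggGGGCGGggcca

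The G and C content of the 3 promoters was 66.8% for CTR9, 57.2% for LEO1 and 70.4% for RTF1, against a median of 58% over 35116 RefSeq promoters cut to the same length. GGGCGG occurred 1 time in CTR9, 2 times in LEO1 and 3 times in RTF1, and in 42.6% of all promoters. CCGGAAG occurred 2 times in CTR9, on opposite strands on either side of the GC box, and in neither LEO1 nor RTF1. It was present in 8.52% of all promoters, and among the members it was also found in WDR61, 3 times, with 2 of the matches overlapping as opposite strands of 1 palindrome. CCAAT, found in 32.0% of promoters, occurred only in PAF1 among the 5 genes, 3 times. TATAAA and TGACGTCA (the cyclic AMP response element), found in 10.7% and 1.65% of promoters, were in none of the 5 windows. A match is a run of letters and not a known site, and no motif was shared by CTR9 and LEO1 other than GGGCGG.

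LEO1, the partner of PAF1, had nearly the order of libraries seen for CTR9, with the control and G3 exchanged and G5 and G11 exchanged. The gene occupies 51938025 to 51971806 of chromosome 15, minus strand. The control held 108 TPM, and G3, G5, G11, G12, G13 and G14 held 91.3, 140, 184, 185, 215 and 253 TPM. G14 was highest and G3 lowest, below the control, whereas CDC73 shared both its lowest and its highest library with CTR9. The ratio to the control was 84.9% in G3 (79.3 to 90.8), 2.00-fold in G13 (1.89 to 2.11) and 2.35-fold in G14 (2.23 to 2.48). LEO1 passed 2-fold in G14, as did 3.97% of all genes, and lay just inside the threshold in G13, with a log2 difference of 0.996. Within the G libraries, which do not involve the control, G14 was 2.77-fold G3 (2.62 to 2.93). Of all genes, 2.59% were at least 2-fold higher in G14 than in G3, but this pair was picked as the highest and lowest of LEO1. The spread from the lowest to the highest library, with 0.5 TPM added, was 2.76-fold for LEO1. It was larger than that of 81.7% of all genes, whose median was 1.79-fold. After a surface of transcript length and GC content was subtracted, the G14 difference was 0.84 and no longer past 2-fold, and with median-of-ratios size factors the G13 difference was 1.16.

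RTF1, the loosely attached subunit linked to H2B ubiquitination, rose in one library and fell in others. The gene occupies 41408408 to 41483563 of chromosome 15, plus strand. The control held 13.7 TPM, and G3, G5, G11, G12, G13 and G14 held 29.1, 15.1, 6.77, 6.26, 3.42 and 6.68 TPM. G3 was highest, G5 was close to the control, and the other 4 libraries were lower, with the lowest value in G13. RTF1 was 2.13-fold the control in G3 (1.82 to 2.497), a rise past 2-fold that 1.89% of all genes shared. It fell past 2-fold in G12, to 45.7% of the control (37.2 to 56.1), and in G13, to 25.0% (19.1 to 32.5). In those libraries 8.79% and 14.6% of all genes fell past 2-fold.

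In G11 and G14 RTF1 stood at 49.4% (39.8 to 61.2) and 48.8% (39.3 to 60.5) of the control, and with the pseudocount the differences of -0.97 and -0.98 did not pass 2-fold. Rising past 2-fold in at least 1 G library and falling past it in another was seen for 80 genes (1.02%), RTF1 among them. G3 was 8.51-fold G13 (6.70 to 10.9), and 18.7% of all genes were at least 2-fold higher in G3 than in G13. The order with G3 highest and G13 lowest of the 7 libraries was that of 20.2% of all genes, so it is common in these libraries. After subtraction of the length and GC surface the G3 difference of RTF1 was 0.83, no longer past 2-fold, and the G11 and G14 differences were -1.22 and -1.36.

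**Figure D2:**
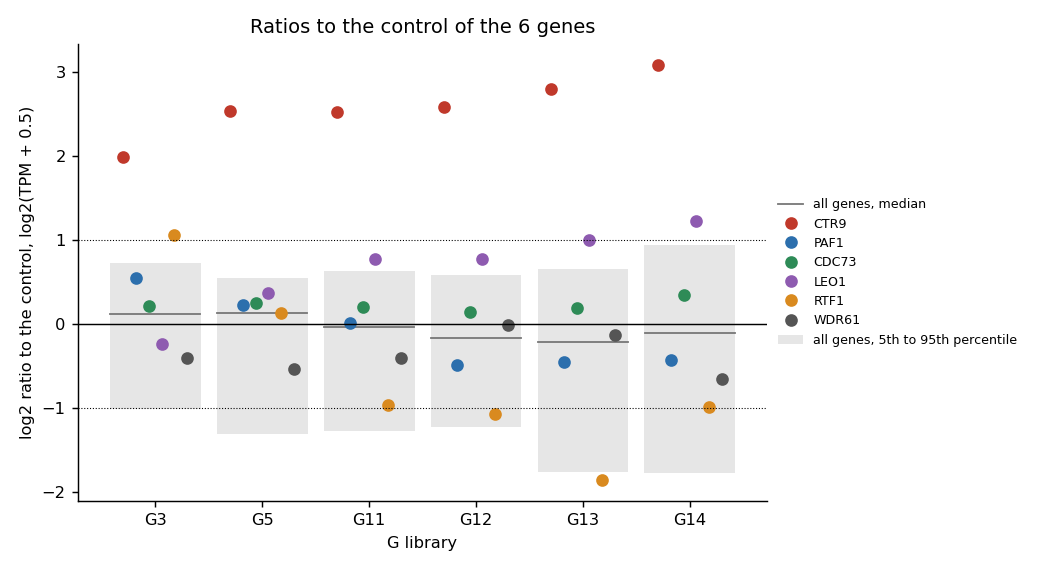
Difference of each gene from the control in the 6 G libraries, on the log2(TPM + 0.5) scale. Points are single libraries, grey bars span the 5th to the 95th percentile of the 7877 compared genes, grey lines are their medians and dotted lines mark 2-fold. CTR9 lay above the bar in all 6 libraries, between 1.98 and 3.09, and RTF1 ran from 1.06 in G3 to -1.86 in G13.

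PAF1, which gives the complex its name, passed 2-fold in no library. The gene occupies 39385852 to 39391195 of chromosome 19, minus strand. The control held 48.4 TPM, and G3, G5, G11, G12, G13 and G14 held 71.2, 56.7, 48.9, 34.5, 35.3 and 36.0 TPM. G3 and G5 were above the control, G11 equalled it within counting error, and G12, G13 and G14 were below it, with each step between neighbours among them within counting error. The ratio to the control was 1.47-fold in G3 (1.35 to 1.61) and 71.3% in G12 (64.8 to 78.4). The medians of all genes in those libraries were 0.12 and -0.16 on the log2 scale, against 0.55 and -0.48 for PAF1.

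WDR61, a WD-repeat protein that is also a subunit of the SKI complex of cytoplasmic RNA decay, was the most abundant member in the control. The gene occupies 78277835 to 78299794 of chromosome 15, minus strand. The control held 204 TPM, and G3, G5, G11, G12, G13 and G14 held 155, 141, 154, 202, 188 and 130 TPM. It was below the control in all 6 G libraries, as were 20.5% of all genes, and it passed 2-fold in none. The lowest ratio was 63.6% in G14 (60.5 to 66.9), and in G12 the ratio of 99.1% had an interval that includes no difference (94.9 to 103). After the median-of-ratios rescaling WDR61 was above the control in G12 and G13, by 0.12 and 0.04 on the log2 scale.

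CDC73, the tumour suppressor parafibromin, had the steadiest gene total of the 6. The gene occupies 193121800 to 193254815 of chromosome 1, plus strand. The control held 105 TPM, and G3, G5, G11, G12, G13 and G14 held 122, 125, 121, 115, 120 and 133 TPM. The control was lowest and G14 highest, and the 4 neighbouring steps from G12 to G5 were within counting error. CDC73 was above the control in all 6 G libraries, as were 21.1% of all genes, by 1.10-fold (1.04 to 1.17) to 1.27-fold (1.20 to 1.35). The spread from the lowest to the highest library, with 0.5 TPM added, was 1.27-fold, against a median of 1.79-fold over all genes. With the length and GC surface subtracted its differences turned negative in 5 of the 6 libraries and had a median of -0.20.

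The balance among the 6 transcripts shifted, and their sum was higher than in the control in every G library but G3. The sum was 480 TPM in the control and lay between 477 (G3) and 577 TPM (G14) in the G libraries. CTR9 made up 0.347% of it in the control (95% Wilson interval 0.240 to 0.501), 1.69% in G3 and 3.10% in G14 (2.81 to 3.43). It remained the least or second least abundant of the 6 in every library. LEO1 went from 22.4% in the control to 43.9% in G14 and WDR61 from 42.5% to 22.5%, so that LEO1 took the place of WDR61 as the largest component in G11, G13 and G14. RTF1 was 2.85% of the sum in the control, 6.11% in G3 and 0.594% in G13. RTF1 was below CTR9 in G11, G12, G13 and G14 and above it in the control, G3 and G5. This order compares reads, which here need no length correction, although capture of long molecules can differ.

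Isoform usage was then compared within each gene by the total variation distance, a scale from 0 for identical isoform shares to 1 for no isoform in common. PAF1, LEO1, RTF1 and WDR61 kept nearly the same isoforms, with distances between 0.020 and 0.051 in every G library, below the medians over all genes of 0.062 to 0.076. Their main isoforms held on average 97.2% of reads for PAF1 (ENST00000221265.8), 91.7% for LEO1 (ENST00000299601.10), 96.6% for RTF1 (ENST00000389629.9) and 89.0% for WDR61 (ENST00000267973.7). The only other isoform of these 4 genes above 5% was a hashed LEO1 isoform that spans nearly the same interval, from 51938026 to 51971787, at 5.29%. The CTR9 distances of 0.187 to 0.214 rest on the 6 single control reads and were 0 when isoforms under 1 TPM were left out.

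CDC73 had distances of 0.155 in G3 to 0.316 in G14, the largest of the 6 members in each library but G3. In G3 the CTR9 distance of 0.214, which rests on single control reads, was larger. The CDC73 distances exceeded those of between 83.6% (G3) and 96.1% (G11) of all genes. Its full-length isoform ENST00000367435.5, which runs from 193121989 to 193254810, held 53.4% of CDC73 reads in the control (51.1 to 55.8) and 67.8%, 76.1%, 80.3%, 74.9%, 79.8% and 83.0% (81.6 to 84.4) in G3, G5, G11, G12, G13 and G14. The control was lowest and its interval, of counting error only, did not overlap that of any G library. How many other genes show the same for their main isoform was not counted. Hashed isoform 1 begins at the same base and ends at 193233054. It held 16.8% in the control and 15.8%, 12.1%, 9.89%, 11.2%, 10.6% and 7.73% in the same order of G libraries. Hashed isoform 2 ends much earlier, at 193150374, and held 15.0% in the control and 7.77%, 3.84%, 2.66%, 5.91%, 4.06% and 2.29% in G3, G5, G11, G12, G13 and G14. Hashed isoform 3, named after its values were seen because its mean share of 4.47% is under 5%, ends at 193212477 and went from 9.43% in the control to between 2.45% (G13) and 5.15% (G3).

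These 3 shortened isoforms stop inside the coding sequence. On the GENCODE 29 model ENST00000367435.4, which has 17 exons, the ends lie in exon 14 (193232993 to 193233154), exon 9 (193150304 to 193150382) and exon 13 (193212390 to 193212477), all before the stop codon at 193250710. The sequence at each end is shown because it is where the shortened isoforms stop. The 30 bases before the end along the spliced transcript are in lower case, and for isoforms 1 and 2 the 30 bases after the end are in capitals. Isoform 3 ends on the last base of its exon, so only the bases before the end are shown. Ends in the table are uncertain by 1 base.
CDC73 hashed isoform 1: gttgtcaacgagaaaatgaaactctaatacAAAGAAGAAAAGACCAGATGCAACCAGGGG
CDC73 hashed isoform 2: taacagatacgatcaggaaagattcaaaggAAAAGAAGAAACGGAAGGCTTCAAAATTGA
CDC73 hashed isoform 3: taatgcaaaagaccttctacaggacctgaa

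In the 20 bases that follow the end, isoforms 1 and 2, but not isoform 3, held more A than most of the coding sequence. Along the spliced model, the 20 bases after the end held 12 A for isoform 1, 11 A for isoform 2 and 7 A for isoform 3. The median over all 20-base windows of the CDC73 coding sequence was 7 A. Of these windows, 97.7%, 95.5% and 49.97% held fewer than isoforms 1, 2 and 3. Over the 30 bases after the end the counts were closer, at 15, 16 and 14 A, and were not compared with other windows. AATAAA, the usual polyadenylation signal, was in none of the 3 stretches of 60 bases before the end. The part of the A-rich sequence in these ends was not tested.

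All 23 CDC73 isoforms that ended at least 50 bases before the stop codon were then summed, a measure chosen after the isoforms had been seen. They held 43.7% of CDC73 reads in the control (41.4 to 46.1) and 30.01%, 20.8%, 16.6%, 21.8%, 17.6% and 13.2% (12.04 to 14.6) in G3, G5, G11, G12, G13 and G14. In TPM they stood at 45.8 in the control and at 36.6, 25.9, 20.1, 25.2, 21.1 and 17.7 in G3, G5, G11, G12, G13 and G14. Reads that ended after the stop codon stood at 59.0 TPM in the control and at 85.3, 99.0, 101, 90.3, 98.9 and 116 TPM in the same order. The near constant CDC73 total thus held fewer shortened reads, those of the 23 isoforms, in each of the 6 G libraries than in the control. It held more reads that ended after the stop codon. Reads that ended after the stop codon were between 145% (133 to 157) in G3 and 196% (182 to 211) in G14 of the control. Shortened reads were between 79.8% (71.8 to 88.7) in G3 and 38.5% (34.0 to 43.7) in G14.

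**Figure D3:**
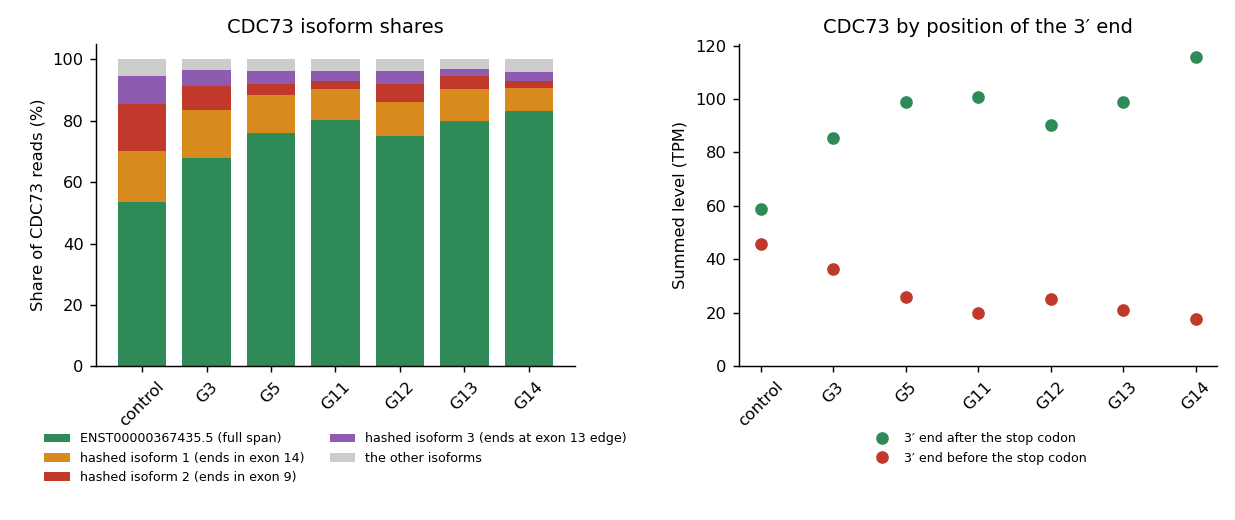
CDC73 isoforms in the 7 libraries. The left panel stacks the share of CDC73 reads (in percent) held by the full-span isoform, the 3 shortened isoforms and the others, and the right panel plots the summed level (TPM) of isoforms that end before or after the stop codon. The full-span isoform went from 53.4% in the control to 83.0% in G14, and reads ending before the stop codon went from 45.8 to 17.7 TPM.

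The same measure was taken for the other members and for all genes. CTR9, LEO1, RTF1 and WDR61 had no read in an isoform that ended at least 50 bases before the stop codon in any library, and PAF1 had at most 0.861%, so CDC73 alone among the 6 had such reads in number. Over 7676 genes with an annotated stop codon the pooled share was 1.58% in the control and between 1.06% (G14) and 1.40% (G3) in the G libraries, and the median share per gene was 0 in all 7. Isoforms without a control read are not listed, so their reads in the G libraries enter neither the early ends nor the gene total. This can lower or raise the shares of the G libraries and was not measured. Of the 685 genes with a mean share of at least 5%, 288 (42.04%) had a lower share in each of the 6 G libraries than in the control, as CDC73 did, and 51 (7.45%) had a higher share in each. CDC73 had a median fall of 24.6 percentage points, the 33rd lowest difference of the 7676 genes. The 90th percentile of the share in the control was 5.26%, so most of these genes could not fall that far. The rank therefore follows in part from the high control share of CDC73, 43.7%, and was not taken among the 685 genes. G14 and G3, the ends of the order for CDC73 among the G libraries, were also the ends of the order for all genes. The part of the listing and of the values of all genes in the CDC73 result was not tested.

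Transcript length moved with the ratios of all genes and is given beside the members. Of 7736 genes split by length into 5 equal groups, the shortest, up to 1615 nt, had a median log2 difference of -0.70, and the other 4 groups by length lay between -0.02 and 0.08. WDR61, at 1379 nt, falls in the shortest group, and its own median difference was -0.40. PAF1 and LEO1, at 2066 and 2192 nt, fall in the second group, with medians of -0.20 and 0.77 against -0.02 for the group. CTR9 (4586 nt), RTF1 (5021 nt) and CDC73 (5940 nt) fall in the longest group, with 2.56, -0.97 and 0.21 against 0.02. The GC content of CTR9 and RTF1 was 44.5% and 46.6%. With the length and GC surface subtracted, the CTR9 difference was between 1.79 (G3) and 2.59 (G14). If its exons are those of the model, CDC73 hashed isoforms 1, 2 and 3 span 1459, 1142 and 1397 nt, within the range of the shortest group. Summed shortened CDC73 reads had log2 differences of -0.32, -0.81, -1.17, -0.85, -1.10 and -1.35 in G3, G5, G11, G12, G13 and G14, and the shortest group of genes had medians of -0.53, -0.84, -0.72, -0.38, -0.42 and -1.01. The shortened reads were further below the control than that group in G11, G12, G13 and G14, close to it in G5 and less far below in G3. The part of transcript length in the values of CTR9, CDC73 and the other members was not tested.

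**Figure D4:**
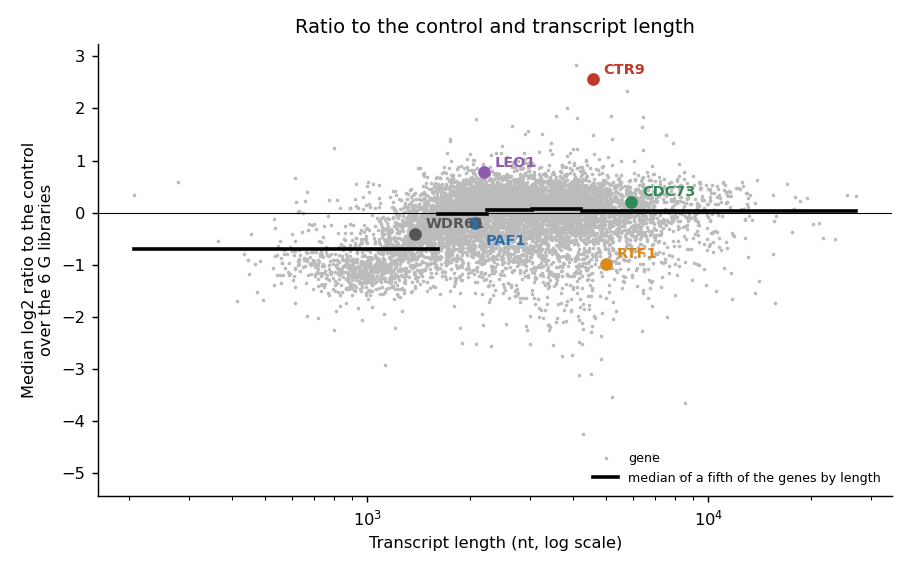
Median log2 difference from the control over the 6 G libraries against transcript length in nt (log axis). Grey points are single genes, black lines are the medians of 5 equal groups by length, and the 6 members are coloured. CTR9, at 2.56, lay far above its length group, and WDR61, at -0.40, lay among the short genes whose median was -0.70.

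The other genes of transcription elongation were examined as lists named by function. Of 64 such genes outside the complex, 45 had a mean of at least 5 TPM, with a median log2 difference of -0.22 against -0.08 over all genes. None of the 45 was at least 2-fold higher in all 6 G libraries and 1 was at least 2-fold lower in all 6, where 0.800% of all genes were. That gene was POLR2I, a small subunit of RNA polymerase II, at 24.2 TPM in the control and between 5.49 (G14) and 11.4 TPM (G3) in the G libraries. Of the 45, 11 (24.4%) were higher in all 6 and 9 were lower in all 6, near the shares of 21.1% and 20.5% over all genes.

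The genes with the highest and the lowest median of each list are given here, so that their lying apart follows from the choice. IWS1, a histone chaperone that binds SUPT6H during elongation, had the highest difference outside the complex, with a median of 1.56. It stood at 15.4 TPM in the control and at 23.4, 38.1, 47.4, 45.2, 58.0 and 72.3 in G3, G5, G11, G12, G13 and G14, and so passed 2-fold in 5 libraries, all but G3. SUPT6H itself had a median of -1.12, from 14.5 TPM in the control to 19.1 in G3 and 2.68 in G13. RNF20 and RNF40, which form the H2B ubiquitin ligase that acts with the complex, had medians of 0.76 and -1.31. RNF40 fell from 26.2 TPM in the control to 2.72 in G13 and stood at 43.3 in G3. The P-TEFb cyclins CCNT2 and CCNT1, which partner the kinase that releases paused polymerase, had medians of 0.66 and -0.78. The super elongation complex factors ELL3 and ELL had 0.74 and -1.21.

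The remaining lists had smaller spreads at their upper end. NELFA and NELFE, subunits of the factor that holds polymerase paused, had the highest and lowest medians of their list, 0.38 and -0.60. ASH2L and MEN1, of the H3K4 methylation complexes, had 0.21 and -0.96, and the polymerase subunit POLR2B had 0.53. TTC37 and SKIV2L, which form the SKI complex with WDR61, had 0.01 and -0.99. The order of RTF1, with G3 highest and G13 lowest, was shared by 12 of the 45 genes (26.7%), among them SUPT6H, RNF40, CCNT1, ELL, MEN1 and SKIV2L. The order of CTR9, with the control lowest and G14 highest, was shared by 8 (17.8%), among them IWS1, RNF20, CCNT2, ASH2L and POLR2B. Over all genes these orders were found in 20.2% and 15.9%.

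**Figure D5:**
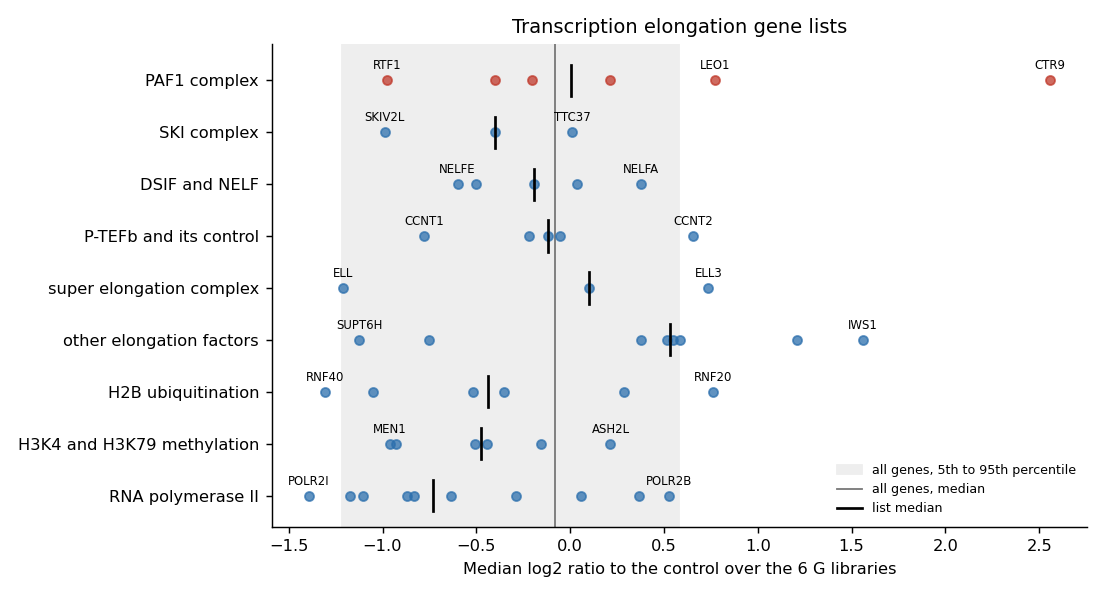
Median log2 difference from the control over the 6 G libraries for the genes of 9 lists, on the log2(TPM + 0.5) scale. Each point is a gene, red for the 6 members, black ticks are list medians, the grey band spans the 5th to the 95th percentile of all genes and the grey line is their median of -0.08. WDR61 appears in the PAF1 complex and the SKI complex. CTR9 at 2.56 and IWS1 at 1.56 lay furthest to the right.

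The genes whose levels followed CTR9 most closely were ranked by Pearson's r of log2(TPM + 0.5) over the 7 libraries, among 6618 genes with a mean of at least 10 TPM. All points share their library, its depth and a control that is low in CTR9, so r is a description. The mean is that of all 7 libraries, so a gene as low in the control as CTR9 enters only if its G libraries are high. The highest were C1orf131 (r = 0.996), TOPORS, a ubiquitin and SUMO ligase (0.994), PLEKHA5 (0.991), SF3B2, a spliceosome subunit (0.988), and DEK, a chromatin protein (0.985). TOPORS stood at 2.68 TPM in the control and at 11.7, 20.4, 22.9, 21.7, 28.1 and 35.9 in G3, G5, G11, G12, G13 and G14, a course close to that of CTR9. SF3B2 and DEK were far more abundant, at 192 and 177 TPM in the control and 740 and 524 TPM in G14. An r of at least 0.9 was reached by 180 genes (2.72%). None of the other members was among them, with 0.85 for CDC73, 0.71 for LEO1, -0.35 for PAF1, -0.47 for RTF1 and -0.53 for WDR61.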

How the data were processed

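Polyadenylated RNA of 7 HUES66 libraries was read on the PacBio Revio system. Per the labels' protocols, the authors concatenated cDNAs into 8-fold arrays (MAS-Seq), which were later divided again so that 1 read represents 1 cDNA. Spike-in RNA, added per the labels' protocols, was not used here. Minimap2 2.17 and the build GRCh38 (hg38) are named per the submitters' processing notes, and the isoform caller, its filters and the annotation are not given in the sources used here. The table holds, per the file headers, counts of full-length reads and TPM for each isoform in each library. Within a library, the deposited TPM was proportional to the count (largest departure 0.005), so it has no length term.

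Gene totals are sums of counts over isoforms that share an unversioned Ensembl ID, with empty cells read as 0, and library totals were taken from the ratio of count to TPM. Loci without a gene ID held 0.106% to 0.191% of reads and stayed in the totals only. Starts were taken as counted from 0 and printed with 1 added. Genes with a mean of at least 5 TPM were compared as log2(TPM + 0.5), and a gene was called at 2-fold. Ratios have exact (Clopper-Pearson) intervals, shares Wilson intervals and levels Poisson intervals, at 95%. They cover counting error only. Reads carry no molecular identifiers, so copies of 1 molecule would be counted as separate reads, and the intervals may be too narrow. A difference with 1 library a group has no replicate check. Length, GC content, exons and stop codons came from GENCODE 29 (98.2% of compared genes had a length), promoters and transcript starts from RefSeq.

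The members and lists were chosen with earlier results of these data known. Named are the 6 members, their isoforms with a mean share of at least 5%, RBFOX2, the 5 genes with the highest r to CTR9, and of the elongation lists those at least 2-fold from the control in the same direction in all 6 libraries and each list's highest and lowest. The ratio and its interval were tested on simulated data. Python 3.11.15, pandas 2.3.3, numpy 2.4.6, scipy 1.17.1 and matplotlib 3.10.9 were used.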

Additional observations from a re-analysis of the deposited data

How the results depend on the processing

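No paired analysis was possible because each group holds 1 library, so groups share fewer than 2 replicate numbers. With the median of the other 6 libraries as reference in place of the control, CTR9 turned negative in G3 (-0.58), G5 (-0.024) and G11 (-0.036), because that reference consists mostly of G libraries. The medians over the G libraries were then 0.018 for CTR9, 0.0082 for CDC73, 0.20 for LEO1, -0.49 for RTF1 and -0.14 for WDR61. With the surface of length and GC content subtracted they were 2.28 for CTR9, -0.20 for CDC73, 0.50 for LEO1 and -0.30 for WDR61. A pseudocount of 1 TPM gave 2.32 for CTR9, reference isoforms alone gave 0.76 for CDC73, and median-of-ratios rescaling, which moved the median of all genes by 0.14 in G12, 0.16 in G13 and 0.11 in G14, gave 0.86 for LEO1. Leaving out 1 G library at a time moved the PAF1 median of -0.20 to between -0.42 and 0.015.

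The 14 genes at least 2-fold higher in all 6 G libraries became 46 at 1.5-fold. The 63 genes at least 2-fold lower in all 6 became 98 with a mean of at least 1 TPM, 28 with at least 20 TPM, 414 at 1.5-fold, 39 after median-of-ratios rescaling and 13 after the length and GC subtraction. With isoforms under 1 TPM left out, the median usage distances were 0 for CTR9, PAF1 and RTF1, 0.0044 for LEO1 and 0.0080 for WDR61. The median share of reads in isoforms that began within 50 bases of the annotated start was 97.2% for CDC73. Within 500 bases it was 100% for CDC73 and PAF1. Measured from the GENCODE 29 start, an alternative chosen after seeing the data, the share within 100 bases was 0% for CTR9 and WDR61. After median-of-ratios rescaling, 4 of the 5 genes closest to CTR9 were shared. CTR9 rests on 28 control reads and RTF1 on 78 reads in G13, and these counts set their precision.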
